A study of Mus musculus with 4 samples.

Results

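Annexin and S100 genes were followed here across the cell lineages of mouse mammary glands with and without the Hippo kinases LATS1 and LATS2. The set comprised 5 annexins (Anxa1, Anxa2, Anxa3, Anxa5 and Anxa8) and 5 S100 genes (S100a4, S100a6, S100a10, S100a11 and S100a14), 10 of 28693 genes in the count matrices, and each was found by its symbol. The set was chosen by the summed UMI counts of Anxa8, which were much higher in knockout than in WT basal cells, so all values for that contrast are given as a description without a test. The count data came from 4 single-cell libraries, 1 per adult nulliparous mouse, each made from several pairs of mammary glands pooled. The 2 WT mice carried floxed Lats1 and Lats2 and a heterozygous R26-lsl-EYFP reporter but no Cre, and the 2 LATS1/2 KO mice also carried Krt8-CreERT2, with the EYFP reporter heterozygous in replicate 1 and homozygous in replicate 2. All mice, WT included, received 5 doses of 2 mg tamoxifen and were collected 7 days after the last dose. The Krt8 promoter drives Cre in luminal cells, EYFP marks cells in which Cre has acted, and the live cells that were sequenced had not been sorted by type. With 2 mice per condition, p-values for LATS1/2 KO against WT measure the spread between these mice only. In comparisons within mice the spread between mice is set aside, and p-values measure how alike the difference was in each mouse. With so few sums, all p-values also draw on variance estimated across genes.

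Annexins bind negatively charged phospholipids when calcium is present and take part in membrane traffic, membrane repair and the link between membranes and actin. S100 proteins are small EF-hand calcium sensors that act mostly as dimers, and several of them bind annexins: S100a10 forms a complex with Anxa2 that holds plasminogen and its activator at the cell surface, and S100a11 binds Anxa1. Anxa1 is known as a mediator that limits inflammation through formyl peptide receptors, Anxa5 as a protein that binds exposed phosphatidylserine, and S100a4 as a partner of non-muscle myosin that is used as a marker of fibroblasts and macrophages.

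The kept cells numbered 18200 of 20324 barcodes and held between 38792520 and 46810771 unique molecular identifiers (UMIs) per library, and 43 barcodes were shared among libraries. Marker genes, none of them an annexin or S100 gene, placed 15095 cells in a lineage. Each cluster took the marker lineage that most of its cells held, and clusters without such a lineage were left unnamed. Cluster and marker names were the same for 98.3% of the 15037 cells named both ways. Since the cluster names came from the marker lineages, this share is high in part by construction. The luminal ER- sums rested on 2034 to 2925 cells per library and the luminal ER+ sums on 128 to 1004, whereas basal cells numbered 169 and 150 in WT and 318 and 400 in LATS1/2 KO. Levels are given as CPM, the UMIs of a gene scaled to 1000000 UMIs of the summed cells, without scaling by length, because a transcript gives UMIs irrespective of its length in this 3′ assay. Lats1 in luminal ER- cells measured 25.6 and 25.3 CPM in WT and 15.1 and 18.0 CPM in LATS1/2 KO (log2 fold change -0.98 ± 0.12, SE; adjusted p = 0.000453, edgeR). Lats2 was higher there in the knockout (0.51 ± 0.11; adjusted p = 0.00572). Which exons were deleted is not given in the sources used here, and for both genes UMIs that lie outside the deleted part would check nothing. At least 1 EYFP UMI was found in 18.6% and 21.8% of knockout luminal ER- cells, in 10.8% and 25.0% of luminal ER+ cells, and in 2.52% and 4.50% of basal cells, against 0.199% to 1.33% in these lineages of WT.

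The 5 S100 members lie on mouse chromosome 3 within 3.04 Mb of the GRCm38 assembly, in the order S100a14 (chr3:90526856-90528837), S100a4 (chr3:90603771-90606045), S100a6 (chr3:90612882-90624181), S100a11 (chr3:93520488-93526287) and S100a10 (chr3:93555080-93564643), all on the plus strand. The annexins are spread over 5 chromosomes: Anxa5 at chr3:36448923-36475894 (minus), Anxa3 at chr5:96793339-96845966 (plus), Anxa2 at chr9:69453620-69491795 (plus), Anxa8 at chr14:34085981-34100571 (plus) and Anxa1 at chr19:20373428-20390944 (minus). S100a4 overlaps the protein-coding model Gm42674 on the same strand, so reads from both may have been split between them and the S100a4 counts are uncertain. Anxa8 overlaps A630023A22Rik on the opposite strand.

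Promoter sequences are printed for Anxa8, the gene that set the choice, and for the 3 members whose promoter held a match to a DNA motif of factors linked to YAP/TAZ output. They run from 250 bases before to 50 bases after the RefSeq start (GRCm38.p6), 5′ to 3′ on the gene's strand, and capitals mark motif matches. The motifs searched on both strands were GGAATG (TEAD) and TGANTCA (AP-1), and no match of one overlapped a match of the other. RefSeq rows were found for 7 of the 10 members, and Anxa3, S100a10 and S100a14 had none.
Anxa8 (chr14:34085729-34086028, plus): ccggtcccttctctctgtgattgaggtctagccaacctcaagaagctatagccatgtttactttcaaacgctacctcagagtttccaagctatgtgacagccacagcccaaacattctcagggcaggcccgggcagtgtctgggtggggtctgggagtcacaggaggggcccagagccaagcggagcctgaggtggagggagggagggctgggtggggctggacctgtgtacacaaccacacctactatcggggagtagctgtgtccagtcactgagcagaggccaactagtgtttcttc
Anxa1 (chr19:20390622-20390921, minus): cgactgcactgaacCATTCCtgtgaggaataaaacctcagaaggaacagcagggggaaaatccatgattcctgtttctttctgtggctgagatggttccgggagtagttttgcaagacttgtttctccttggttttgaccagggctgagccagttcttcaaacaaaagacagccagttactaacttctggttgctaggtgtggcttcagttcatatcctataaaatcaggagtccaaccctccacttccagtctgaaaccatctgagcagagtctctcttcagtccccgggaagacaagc
Anxa2 (chr9:69453433-69453732, plus): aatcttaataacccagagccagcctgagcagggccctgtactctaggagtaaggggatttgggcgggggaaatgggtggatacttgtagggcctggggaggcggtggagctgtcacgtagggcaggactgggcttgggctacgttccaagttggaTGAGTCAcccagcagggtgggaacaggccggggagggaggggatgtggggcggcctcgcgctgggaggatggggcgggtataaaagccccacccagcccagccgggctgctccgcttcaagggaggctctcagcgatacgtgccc
S100a11 (chr3:93520246-93520545, plus): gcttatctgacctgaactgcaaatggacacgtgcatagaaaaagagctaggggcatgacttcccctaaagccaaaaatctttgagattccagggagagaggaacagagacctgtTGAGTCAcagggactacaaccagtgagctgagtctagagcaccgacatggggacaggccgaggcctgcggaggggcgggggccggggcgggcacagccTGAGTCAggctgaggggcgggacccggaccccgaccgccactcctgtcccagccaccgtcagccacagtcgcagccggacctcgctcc
GGAATG was present in 1 of the 7 member promoters, as CATTCC at position -236 from the start of Anxa1, and in 14.7% of all 32851 RefSeq promoters of the same length. TGANTCA was present in 2 of the 7, at -95 in Anxa2 and at -136 and -38 in S100a11, and in 7.81% of all promoters. The Anxa8 window held neither string.

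In basal cells, the contrast that set the choice, 7 of the 10 members had a fitted log2 fold change above 1 between LATS1/2 KO and WT, where 11.5% of the 8807 genes fitted had one. The median over the members was 2.02 on the log2 scale and that over all genes 0.00. Anxa8, an annexin that associates with late endosomes, measured 10.5 and 9.84 CPM in WT (6 UMIs in each library) and 470.2 and 484 CPM in LATS1/2 KO, a log2 fold change of 5.42 ± 0.25 (SE, n = 2 mice per condition). The knockout libraries nearly coincided and lay far above both WT libraries. S100a4 measured 59.7 and 55.7 CPM in the knockout and 1.75 and 3.28 CPM in WT, from 1 and 2 UMIs, with exact Poisson 95% intervals of 0.0444 to 9.78 and 0.397 to 11.9 CPM for counting error only. Its fitted change of 4.33 ± 0.47 rests on those 3 WT UMIs. Anxa3 measured 22.8 and 11.5 CPM in WT and 326 and 210.2 CPM in the knockout (3.85 ± 0.29), and S100a14, an S100 protein of epithelia, measured 19.3 and 6.56 CPM against 166 and 149.5 CPM (3.50 ± 0.29). Without WT replicate 1, the fitted changes were 4.46 for Anxa3 and 4.50 for S100a14.

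S100a6, the most abundant member in basal cells, measured 965 and 1099 CPM in WT basal cells and 7172 and 6195 CPM in the knockout (2.58 ± 0.17). Anxa1 measured 161 and 133 CPM in WT and 492 and 392 CPM in the knockout (1.46 ± 0.18). An estimate of free RNA in the droplets was taken from luminal genes that basal cells were assumed not to make, with the sum of all barcodes as the free RNA mixture. It came to 75.9% and 38.3% of the knockout Anxa1 level, and with it subtracted the fitted change was 0.57. The partners S100a11 (725 and 740 CPM against 1707 and 1581 CPM; 1.05 ± 0.15), S100a10 (774 and 784 against 1674 and 1289 CPM; 0.81 ± 0.16) and Anxa2 (347 and 292 against 646 and 501 CPM; 0.72 ± 0.17) differed less. Anxa5 was the exception, at 356 and 381 CPM in WT and 390.1 and 283 CPM in the knockout with overlapping groups (-0.25 ± 0.17), so that in 9 of the 10 members both knockout libraries lay above both WT libraries, as they did for 39.8% of the 8807 genes fitted. Other markers moved in the same basal sums: the 6 contractile markers summed to 7021 and 8829 CPM in WT and 3530 and 4079 CPM in the knockout, with none at 0. Each of the 6 was lower in the knockout, Cnn1 (483 and 632 against 49.7 and 83.2 CPM) and Oxtr (304 and 317 against 22.1 and 31.5 CPM) most steeply. The basal keratins Krt14 (2094 and 1849 against 2930 and 2842 CPM) and Krt5 (811 and 855 against 1238 and 1320 CPM) were higher, and Trp63 (130 and 95.2 against 69.1 and 63.5 CPM) was lower. The 10 luminal ER- markers summed to 1604 and 1859 against 2886 and 2412 CPM. The median depth of a basal cell was 3245 and 3740 UMIs in WT and 5377 and 5384 UMIs in the knockout. The part of cell composition and depth in the basal differences was not tested.

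**Figure D1:**
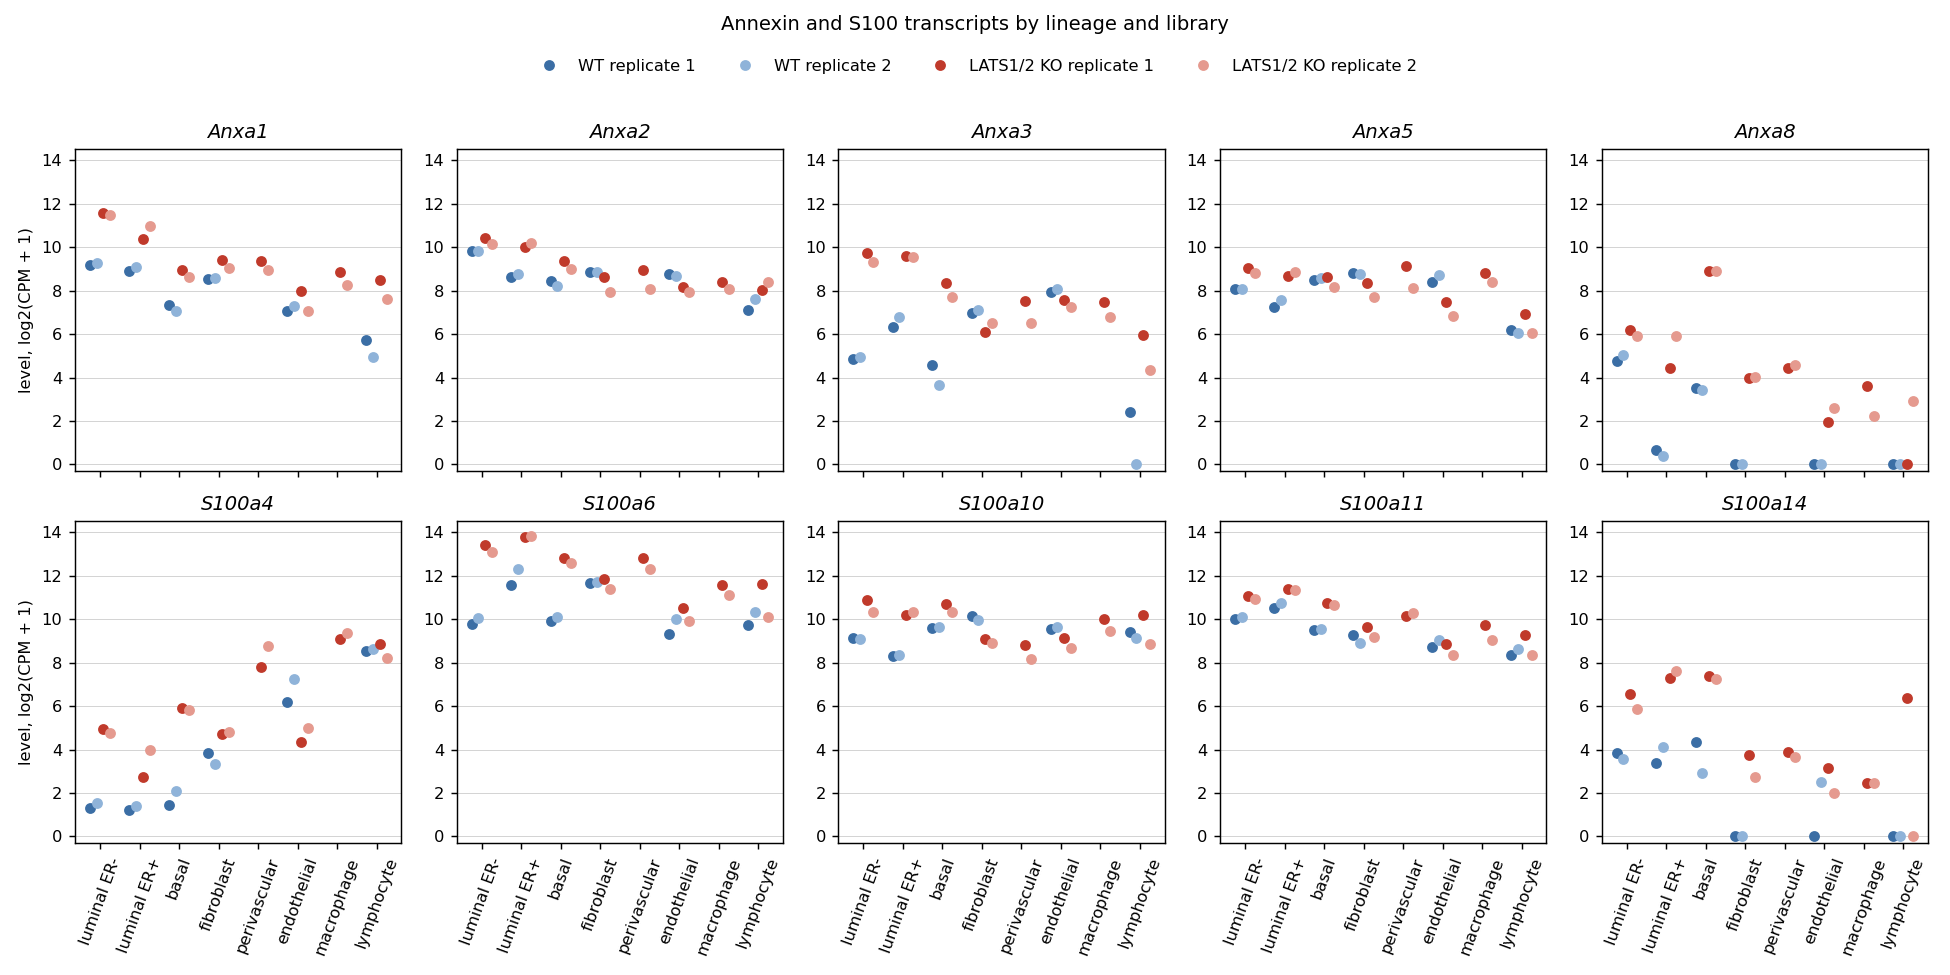
CPM of each of the 10 members (log2 axis of CPM + 1) in each lineage, with 1 point per library, WT and LATS1/2 KO in separate colours. Perivascular cells and macrophages have knockout points only, because the WT libraries held under 20 such cells, and Anxa8 in basal cells shows the widest gap between the WT pair near 10 and the knockout pair near 470 to 484 CPM.

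Counted by cells, the Anxa8 values in the basal lineage had the same order. After each cell was thinned to 2000 UMIs, leaving 146 and 139 WT and 304 and 381 knockout basal cells, at least 1 Anxa8 UMI was found in 0.685% and 0.719% of WT basal cells and in 58.2% and 54.6% of knockout basal cells. Without thinning, the shares were 3.55% and 4% in WT and 81.1% and 83.8% in the knockout. In luminal ER+ cells of WT, where the Anxa8 level lay near or below the free RNA estimate, the thinned shares were 0.104% and 0%, and in knockout endothelial cells 1.14% in both libraries. The free RNA estimate for Anxa8 in knockout basal cells was 11.4 and 4.59 CPM, a small part of its level.

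Within the knockout basal cells, the 177 cells of replicate 1 with an Anxa8 UMI after thinning were set beside the 127 without. EYFP was detected in 2.82% of the former and 2.36% of the latter, and in replicate 2 in 3.85% of 208 cells with and 5.78% of 173 cells without Anxa8. The contractile sum was 3494 against 4051 CPM in replicate 1 and 3959 against 3124 CPM in replicate 2, so that its order was opposite in the 2 mice. S100a6 was higher in the cells with Anxa8 in both mice, at 7212 against 5327 CPM and 5757 against 5000 CPM, as were Anxa2, Anxa3, S100a11 and S100a14. Anxa1, Anxa5, S100a4 and S100a10 had opposite orders in the 2 mice. The basal markers that are not contractile (Krt5, Krt14, Krt17 and Trp63) summed to 5887 against 4461 CPM in replicate 1 and 5079 against 4538 CPM in replicate 2.

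**Figure D2:**
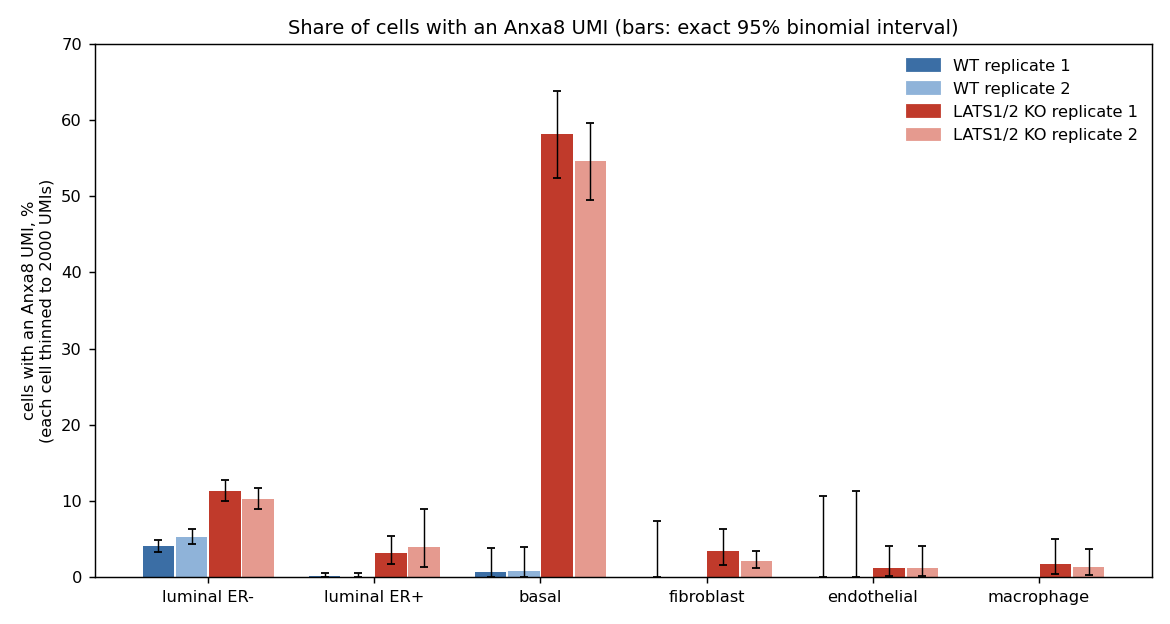
Share of cells (percent, y axis) with at least 1 Anxa8 UMI after thinning every cell to 2000 UMIs, by lineage and library, with exact 95% binomial intervals that cover counting error only. Basal cells of LATS1/2 KO stand at 58.2% and 54.6%, and every other lineage shown stays far below.

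Across lineages, Anxa8 in WT was highest in luminal ER- cells (25.9 and 31.7 CPM), followed by basal cells, and was near 0 in luminal ER+ cells (0.582 and 0.319 CPM). In LATS1/2 KO the order began with basal cells, followed by luminal ER- (71.8 and 58.6 CPM) and luminal ER+ cells (21.0 and 58.9 CPM), whose ranges met. Knockout fibroblasts (14.8 and 15.5 CPM), perivascular cells (20.8 and 22.8 CPM, from 3 and 6 UMIs), macrophages (11.1 and 3.74 CPM) and endothelial cells (2.91 and 4.97 CPM) stood lower. In the last 2 the free RNA estimates were of the same size, at 8.77 and 5.91 CPM in macrophages and 6.34 and 3.79 CPM in endothelial cells.

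The luminal ER- lineage, the alveolar-type progenitors in which Krt8-CreERT2 acts, gave a comparison other than the basal contrast that set the choice. The members were chosen with earlier results of these data known, so their calls here and in the later comparisons are no independent check. Of the 10 members, 9 were higher in LATS1/2 KO and none was lower at an adjusted p under 0.05, where 31.5% of the 13446 genes tested were called higher and 28.9% lower, and the median over members was 1.57 on the log2 scale against 0.01 over all genes. Anxa3 had the steepest difference, from 27.5 and 30.3 CPM to 848 and 635 CPM (4.33 ± 0.18, adjusted p = 8.59e-06). S100a4 went from 1.49 and 1.94 CPM to 30.3 and 26.5 CPM (3.70 ± 0.18, adjusted p = 1.40e-05). S100a6 measured 871 and 1048 CPM in WT and 11039 and 8782 CPM in the knockout (3.02 ± 0.17, adjusted p = 2.02e-05). For all 3 genes the gap between conditions was many times the gap between mice of a condition.

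S100a14 rose from 13.3 and 11.01 CPM to 93.3 and 58.0 CPM in luminal ER- cells (2.28 ± 0.24, adjusted p = 0.000243). Anxa1 rose from 571 and 607 CPM to 2990.4 and 2856 CPM (1.96 ± 0.11, adjusted p = 2.02e-05), and its partner S100a11 from 1016 and 1094 CPM to 2165 and 1945 CPM (0.61 ± 0.11, adjusted p = 0.00324). S100a10 rose from 551 and 539 CPM to 1872 and 1289 CPM (1.18 ± 0.18, adjusted p = 0.00128), whereas its annexin partner Anxa2, at 909.7 and 899.7 CPM in WT and 1379 and 1146 CPM in the knockout, did not pass (0.13 ± 0.13, adjusted p = 0.407). Anxa8 was higher by 0.83 ± 0.15 (adjusted p = 0.00245), against the 5.42 fitted in basal cells, and Anxa5 by 0.52 ± 0.12 (adjusted p = 0.00697), from 270.6 and 269 CPM to 533 and 454 CPM. The scaling mattered here: with library totals in place of TMM factors, the median of all genes moved from 0.01 to 0.36 and the share of called genes that were higher from 52.1% to 73.5%, and Anxa2 then passed at 0.48 (adjusted p = 0.0100). The 10 basal markers summed to 66.9 and 81.8 CPM in WT luminal ER- cells and to 1391 and 1016 CPM in the knockout, the 6 contractile ones to 53.7 and 69.7 against 118 and 123 CPM. The part of this in the member values was not tested.

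In luminal ER+ cells, the hormone-sensing lineage, all 10 members were higher in LATS1/2 KO, where 13.9% of 11884 genes tested were called higher and 12.3% lower, and their median was 1.81 on the log2 scale against -0.00 over all genes. Anxa8 measured 0.582 and 0.319 CPM in WT, from 7 and 4 UMIs in 1004 and 736 cells, and 21.0 and 58.9 CPM in the knockout (6.28 ± 0.62, adjusted p = 0.00196). The WT values lay near the free RNA estimate of 0.574 and 0.513 CPM, and the estimate in the knockout was 7.15 and 4.91 CPM, and the fitted change ran from 5.06 with lineages taken from clusters to 10.9 with free RNA subtracted. S100a14 rose from 9.48 and 16.5 CPM to 155 and 197 CPM (3.70 ± 0.26, adjusted p = 0.000708) and Anxa3 from 79.5 and 110.3 CPM to 761 and 742 CPM (2.94 ± 0.18, adjusted p = 0.000574). The 2 members of the Anxa2 complex rose together in this lineage, S100a10 from 317 and 321 CPM to 1151 and 1265 CPM (1.87 ± 0.12, adjusted p = 0.000634) and Anxa2 from 399.9 and 439.8 CPM to 1014 and 1177 CPM (1.33 ± 0.13, adjusted p = 0.00176).

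Other markers moved in the same luminal ER+ sums: the 10 basal markers summed to 46.3 and 27.2 CPM in WT and to 336 and 660.0 CPM in the knockout, with 1 and 3 of them at 0 there. Krt14 made up 293 and 639 CPM of the latter. The 6 contractile markers summed to 28.4 and 18.3 CPM in WT and 30.1 and 17.3 CPM in the knockout. The 10 luminal ER- markers summed to 249.6 and 219 CPM against 430.5 and 433 CPM. A luminal ER+ cell held a median of 11958.5 and 15110.5 UMIs in WT and 8391 and 10400.5 UMIs in the knockout. The part of these shifts in the member values was not tested.

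S100a6 was already high in WT luminal ER+ cells, at 3074 and 5091 CPM, and stood at 13875 and 14418 CPM in the knockout (1.75 ± 0.24, adjusted p = 0.00507). Anxa1 rose from 476 and 547 CPM to 1339 and 2004 CPM (1.65 ± 0.19, adjusted p = 0.00315) and Anxa5 from 152 and 186 CPM to 406 and 456 CPM (1.30 ± 0.13, adjusted p = 0.0022). The remaining calls were less firm. S100a11, at 1438 and 1719 CPM against 2635 and 2609 CPM (0.69 ± 0.14, adjusted p = 0.0156), did not pass without WT replicate 1 (adjusted p = 0.126) or without LATS1/2 KO replicate 1 (adjusted p = 0.0558). S100a4, at 1.33 and 1.67 CPM against 5.61 and 14.6 CPM (2.57 ± 0.52, adjusted p = 0.0161), did not pass with free RNA subtracted (adjusted p = 0.140), without WT replicate 1 (adjusted p = 0.0653) or without LATS1/2 KO replicate 2 (adjusted p = 0.0599).

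**Figure D3:**
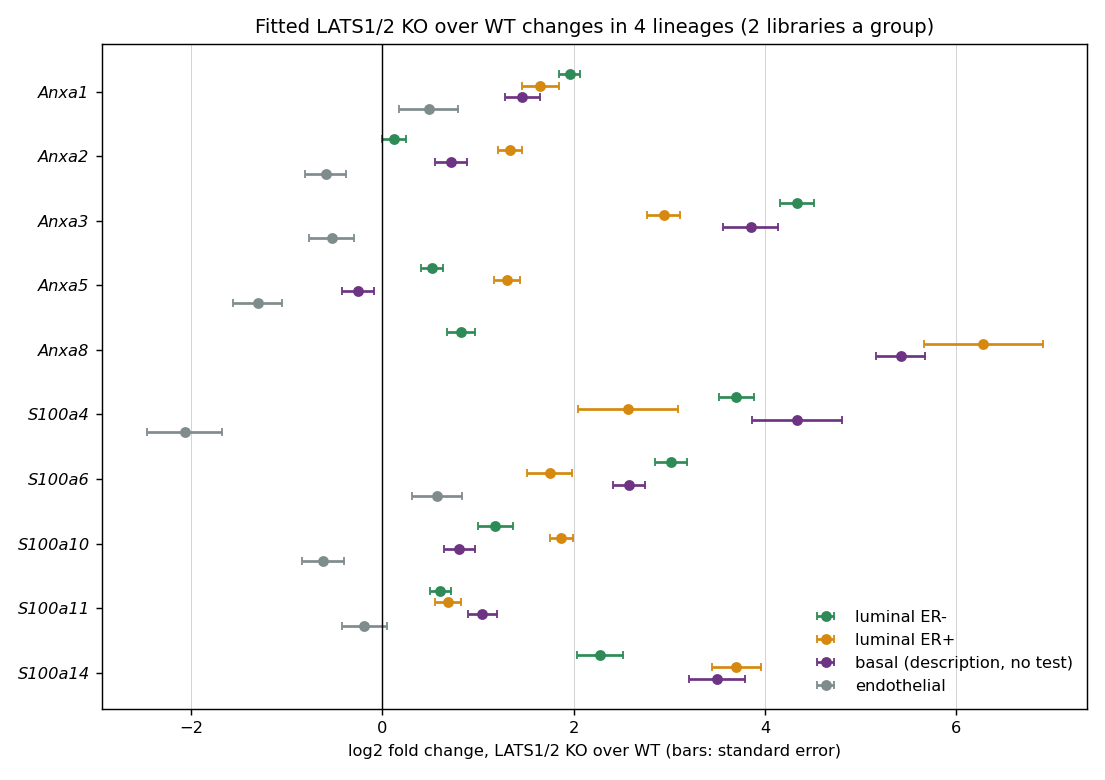
Log2 fold change of LATS1/2 KO against WT for each member, from the fit over all genes, with bars of 1 SE, in luminal ER-, luminal ER+, basal and endothelial cells. Basal points are a description because that contrast chose the set. Anxa8 runs from 0.83 in luminal ER- to 5.42 in basal and 6.28 in luminal ER+ cells, and Anxa5 is the member at or below 0 in basal cells.

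The knockout difference itself was compared between the luminal ER+ and ER- lineages, which come from the same 4 libraries. It differed for 7 of the 10 members, being larger in luminal ER+ cells for 5 and smaller for 2, where 12.5% and 9.71% of 13909 genes were called in these directions. Anxa8 (5.45 ± 0.66, adjusted p = 0.000439) and the pair Anxa2 (1.27 ± 0.15, adjusted p = 0.000405) and S100a10 (0.77 ± 0.18, adjusted p = 0.0143) had the larger knockout difference in luminal ER+ cells, as did S100a14 (1.51 ± 0.36, adjusted p = 0.0162) and Anxa5 (0.85 ± 0.15, adjusted p = 0.00406). Anxa3 (-1.31 ± 0.16, adjusted p = 0.000433) and S100a6 (-1.17 ± 0.16, adjusted p = 0.000881) had the smaller one there, and both had higher WT levels in luminal ER+ cells. Anxa1 (-0.27), S100a4 (-1.15) and S100a11 (0.14) did not pass. With library totals alone, where the median of all genes moved from 0.03 to -0.34, the calls for Anxa5 (0.48, adjusted p = 0.0563), S100a10 (0.41, adjusted p = 0.152) and S100a14 (1.15, adjusted p = 0.0599) did not hold, and Anxa1 passed (-0.63, adjusted p = 0.037). S100a14 fell to 0.17 (adjusted p = 0.691) and S100a10 to 0.21 (adjusted p = 0.175) with lineages taken from clusters, where Anxa1 (-1.01, adjusted p = 7.90e-05) and S100a4 (-2.12, adjusted p = 0.00260) passed. Without LATS1/2 KO replicate 2 S100a14 did not pass (adjusted p = 0.0555) while Anxa1 (adjusted p = 0.0109) and S100a4 (adjusted p = 0.0176) did.

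Among knockout cells of the luminal ER- and ER+ lineages, those with at least 1 EYFP UMI (423 and 475 cells) were compared with those with none (2015 and 1687 cells) within each mouse. All 10 members were higher in the EYFP-positive cells, in both mice, where 16.7% of 12643 genes tested were called higher and 17.2% lower. Anxa1 measured 2397 CPM in EYFP = 0 and 3762 CPM in EYFP-positive cells of replicate 1, and 2075 and 4246 CPM in replicate 2 (0.82 ± 0.06, adjusted p = 4.10e-07). S100a10 measured 1505 and 2509 CPM in replicate 1 and 1028 and 1800 CPM in replicate 2 (0.75 ± 0.05, adjusted p = 4.77e-08). Anxa8 measured 58.8 and 80.9 CPM in replicate 1 and 52.5 and 70.7 CPM in replicate 2 (0.43 ± 0.07, adjusted p = 0.000533). Of the annexins, Anxa3 went from 745 to 1090.3 CPM and from 514 to 892 CPM (0.65 ± 0.06, adjusted p = 9.72e-07), Anxa2 from 1196 to 1696 CPM and from 978 to 1482 CPM (0.53 ± 0.05, adjusted p = 1.46e-06) and Anxa5 from 470.3 to 639.5 CPM and from 386 to 590.5 CPM (0.51 ± 0.05, adjusted p = 6.95e-06). Of the S100 genes, S100a4 went from 23.1 to 37.0 CPM and from 20.7 to 35.8 CPM (0.72 ± 0.10, adjusted p = 9.43e-05), S100a14 from 93.4 to 126 CPM and from 49.6 to 98.9 CPM (0.68 ± 0.10, adjusted p = 0.000102) and S100a6 from 10771 to 13307 CPM and from 8021 to 11268 CPM (0.38 ± 0.05, adjusted p = 3.27e-05). For every member, the CPM of the EYFP = 0 cells was already above the WT CPM of both luminal lineages in both mice, without a test. The gap was narrow for S100a11 and, in replicate 2, for Anxa2. CPM rests on library totals, with which the median LATS1/2 KO change of all genes in luminal ER- cells was 0.36, against 0.01 with TMM factors. The order at these narrow gaps may therefore depend on the scaling. The smallest difference between EYFP-positive and EYFP = 0 cells was that of S100a11 (0.21 ± 0.05, adjusted p = 0.00314), which did not pass in DESeq2 (adjusted p = 0.0589).

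EYFP-positive cells were also deeper, with a median of 13445 and 15405 UMIs against 7430 and 7634 in the EYFP = 0 cells, and a cell with more UMIs has more chances to show EYFP. With every cell thinned to 2000 UMIs before EYFP was read, 8 members were called, and Anxa8 (0.43, adjusted p = 0.271) and S100a4 (0.68, adjusted p = 0.283) were not, at fitted changes close to those without thinning. Without the mouse as a replicate block, 2 members were called and 7 had an unadjusted p under 0.05, with Anxa8 still at 0.43 and S100a10 at 0.75. Luminal ER- cells made up 82.8% of the EYFP = 0 and 90.1% of the EYFP-positive cells in replicate 1, and 94.3% and 93.3% in replicate 2. Krt14, a basal keratin, went from 772 to 1774 CPM in replicate 1 and from 522 to 1328 CPM in replicate 2. The part of this in the member values was not tested. EYFP = 0 does not show that a cell kept LATS1 and LATS2.

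**Figure D4:**
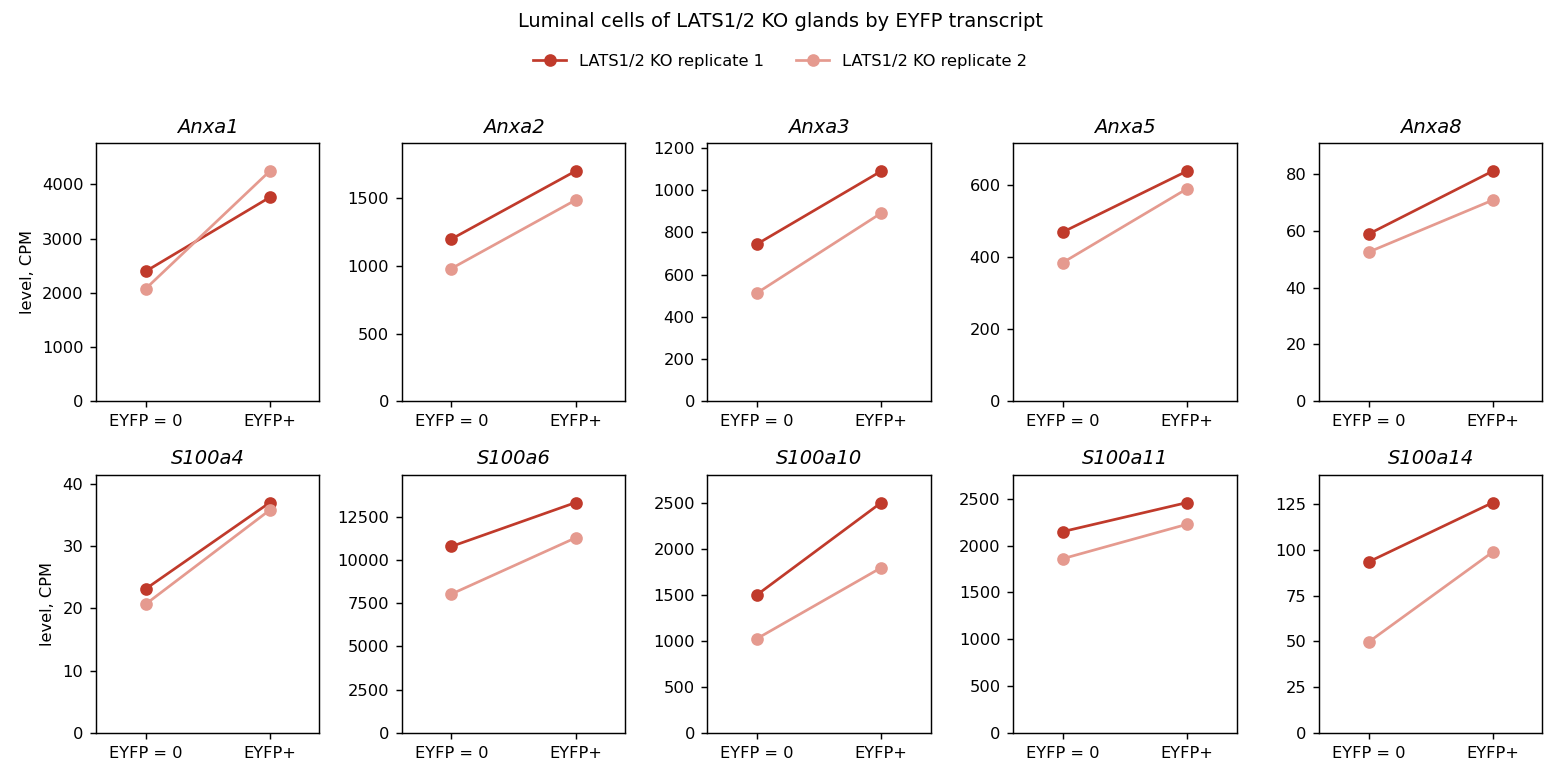
CPM of each member (linear axis from 0, scaled per gene) in EYFP = 0 and EYFP-positive cells of the luminal ER- and ER+ lineages of the 2 LATS1/2 KO mice, with a line joining the 2 values of a mouse. Every line rises, and the changes fitted over both mice run from 0.21 (S100a11) to 0.82 (Anxa1) on the log2 scale.

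Knockout glands also held luminal cells that met neither the ER- nor the ER+ limits, 583 and 553 cells against 21 and 12 in WT, and EYFP was detected in 46.7% and 59.9% of them. Their Anxa1 level was 5007 and 5266 CPM, above that of either named luminal lineage of the knockout. S100a6 stood at 16422 and 14027 CPM, S100a10 at 3440.4 and 2747 CPM, Anxa3 at 1380 and 1058 CPM and S100a14 at 264 and 149 CPM. Anxa8 was at 92.3 and 79.8 CPM, between the basal and luminal ER- values. No test was made, since the WT libraries held too few such cells.

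In WT glands the members had distinct lineage patterns. Against luminal ER- cells, basal cells had fitted log2 differences of -2.21 ± 0.13 for Anxa1, -1.71 ± 0.12 for Anxa2, -1.71 ± 0.36 for Anxa8, -0.97 ± 0.31 for Anxa3, -0.73 ± 0.10 for S100a11 and 0.31 ± 0.10 for S100a10. These are a description without a test, because the WT basal sums were part of the contrast that chose the set. Luminal ER+ cells had higher S100a6 (1.81, adjusted p = 2.57e-05), Anxa3 (1.46, adjusted p = 5.86e-05) and S100a11 (0.34, adjusted p = 0.00463) than luminal ER- cells, and lower Anxa8 (-6.22 ± 0.24, adjusted p = 4.13e-06, and -12.1 with free RNA subtracted), Anxa2 (-1.35), S100a10 (-1.01), Anxa5 (-0.92) and Anxa1 (-0.44), where 31.1% of 12976 genes were called in each direction. Of the 3 epithelial lineages of WT, luminal ER+ cells had the highest S100a6 and the lowest Anxa8 level.

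The stroma gave few calls. In fibroblasts, 0 of the 9 members tested passed in edgeR, where 4.03% of 7991 genes did, while 3 had an unadjusted p under 0.05 and DESeq2 called 1. The lowest adjusted p in edgeR was that of S100a10, at 1119 and 985 CPM in WT and 538 and 476 CPM in the knockout (-0.94 ± 0.25, adjusted p = 0.0787). S100a6 was abundant in fibroblasts of both conditions, at 3287 and 3303 CPM against 3634 and 2669 CPM, and Anxa1 measured 366 and 383 CPM against 677 and 525 CPM (0.79 ± 0.27, adjusted p = 0.142). Anxa8 had 0 UMIs in both WT fibroblast libraries, and taking 3 counts over the WT cells as a floor (8.99 CPM), the knockout level of 15.3 CPM was at least 1.71-fold higher, while the free RNA estimate was 5.16 and 3.08 CPM. The WT fibroblasts numbered only 55 and 24 cells. In endothelial cells 2 of 8 members tested were lower in the knockout, where 4.73% of 6807 genes were called lower and 4.03% higher. Anxa5 went from 335 and 415 CPM to 179.6 and 112 CPM (-1.30 ± 0.26, adjusted p = 0.00426) and S100a4 from 70.8 and 149 CPM to 19.4 and 30.8 CPM (-2.06 ± 0.39, adjusted p = 0.0033), although S100a4 did not pass without WT replicate 2 (adjusted p = 0.0628) and neither passed in edgeR without a filter on low counts, where 0 of 10 members were called and 3 had an unadjusted p under 0.05. DESeq2 called 2 of 8. The other members tested measured, for example, 638 and 1040.0 CPM in WT and 1435 and 948 CPM in the knockout for S100a6, and 756 and 788 against 560.1 and 403 CPM for S100a10 (-0.62 ± 0.22, adjusted p = 0.0976). The free RNA estimate was 58.5% and 42.4% of the knockout S100a6 level and 22.6% and 18.7% of that of Anxa5. With free RNA subtracted 5 of 8 members were called lower, now with S100a10 (-0.90, adjusted p = 0.0237), Anxa2 (-0.84, adjusted p = 0.0359) and Anxa3 (-0.94, adjusted p = 0.0267).

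In lymphocytes, of which the knockout libraries held 20 and 57, Anxa1 alone of 7 members tested was higher (51.7 and 29.8 CPM against 363 and 195.5 CPM; 2.50 ± 0.47, adjusted p = 0.00661), where 1.37% of 2473 genes were called higher. The free RNA estimate was 109% and 113% of its knockout level, with free RNA subtracted 0 of 5 members were called in edgeR and 0 had an unadjusted p under 0.05 (DESeq2 called 1 of 7 without the subtraction), and without WT replicate 2 the adjusted p was 0.130. S100a4 was high in some non-epithelial lineages: it measured 369 and 388 CPM in WT and 464 and 299.7 CPM in knockout lymphocytes, 541 and 662 CPM in knockout macrophages and 222 and 434 CPM in knockout perivascular cells, all above its level in any epithelial lineage. It was lower in fibroblasts (13.4 and 9.12 CPM in WT, 24.9 and 27.2 CPM in the knockout) and knockout endothelial cells (19.4 and 30.8 CPM). Those values lay below the 59.7 and 55.7 CPM of knockout basal cells.

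The remaining annexins and S100 genes gave mixed counts. In luminal ER- cells 3 of 5 other annexins tested were higher and 1 lower, and of 8 other S100 genes 2 were higher and 4 lower. In luminal ER+ cells 2 of 5 other annexins and 4 of 7 other S100 genes were higher, with 0 and 1 lower. Among partners and receptors, 11 of 14 were higher and 1 lower in luminal ER- cells, and 7 of 13 higher and 1 lower in luminal ER+ cells. Over all genes tested, 31.5% were called higher and 28.9% lower in luminal ER- cells, and 13.9% and 12.3% in luminal ER+ cells. Plau, the urokinase-type activator of plasminogen, went from 0.991 and 0.740 CPM to 33.7 and 22.5 CPM in luminal ER- cells (4.64, adjusted p = 2.79e-05). Plat, the tissue-type activator, was higher there by 2.25 (adjusted p = 0.000172) and the S100 gene S100a7a by 2.24 (adjusted p = 0.00161).

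Plau was also higher in luminal ER+ cells, by 3.42 on the log2 scale, and in EYFP-positive over EYFP = 0 cells, by 1.24. S100a7a was higher in EYFP-positive cells by 2.55 (adjusted p = 2.01e-05), whereas S100a8, a calprotectin subunit, was lower (-1.39, adjusted p = 0.000325) but did not pass with cells thinned to 2000 UMIs (-1.82, adjusted p = 0.102) or with no replicate block (-1.38, adjusted p = 0.0891). Nor did Plau pass with no replicate block (1.23, adjusted p = 0.0575). In luminal ER+ cells, S100a8 was higher in LATS1/2 KO, at 4.72 and 3.47 CPM against 0.250 and 0.239 CPM in WT. That change (3.99, adjusted p = 0.00636, edgeR) rests on 3 UMIs in each WT library and on 16 and 5 UMIs in the knockout. The comparisons share libraries, so these values are not independent of each other. In fibroblasts the list gene called was Myh9, the non-muscle myosin heavy chain that S100a4 binds, at 58.0 and 73.0 CPM in WT, from 13 and 8 UMIs, and 285 and 239 CPM in the knockout (2.14, adjusted p = 0.0118). The call was lost without WT replicate 1 (adjusted p = 0.125) or WT replicate 2 (adjusted p = 0.0563).

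The genes whose log2(CPM + 1) most resembled that of Anxa8 over 28 lineage-by-library sums, of 13507 genes, were Pkp1 (Pearson r = 0.904), Tax1bp3 (0.849), Wfdc3 (0.831), Slpi (0.820) and 5730559C18Rik (0.808), as a description over sums that share libraries. Pkp1, a desmosomal plaque protein, measured 33.3 and 41.0 CPM in WT and 90.6 and 104 CPM in knockout basal cells, a narrower gap than that of Anxa8. Among the members, S100a14 came closest to Anxa8 (0.721) and S100a4 was farthest from it (-0.112).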

How the data were processed

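Single cells from the mammary glands of 4 mice, with several gland pairs pooled per mouse, were profiled with 10x Genomics 3′ v3 chemistry. The deposited values are raw UMI counts per gene and barcode, which the authors made with Cell Ranger (6.1.2 in the file headers, 3.1.0 in the submitters' processing notes) on mm10 without normalization. A barcode was kept if it had over 500 genes and less than 20% of its UMIs from mitochondrial genes. Scrublet (scanpy 1.11.5) called 84 cells (0.462%), which cannot serve to filter doublets, hence none were removed and leaving out the top 4% of scores was an alternative. Cells were placed by marker genes, luminal cells also by ER- or ER+ markers, basal cells by contractile markers, and the limits of these gates were set after marker levels had been seen. Counts were summed per library and lineage with at least 20 cells and tested with edgeR 4.0.16 in R 4.3.3 (quasi-likelihood F test with TMM factors on genes passing filterByExpr, p adjusted by Benjamini-Hochberg over all genes tested, threshold 0.05), by condition alone for LATS1/2 KO against WT and with the mouse as block for comparisons within mice. SE is the log2 fold change divided by the root of F. The free RNA share of a lineage was estimated from marker genes of other lineages: collagen genes for luminal cells, Csn3, Wfdc18, Plet1 and Trf for basal cells, and these with Krt8 and Krt18 for the rest. All barcodes of a library, most of them cells, stood in for the free RNA mixture. Where a lineage makes such a gene itself, the share is too high. Scripts were tested on simulated data. Members, gene lists and tests were chosen with earlier results of these data known. All members were named, and from the 3 other lists (further annexins, further S100 genes, partners and receptors) up to 4 genes per comparison with the largest called change and groups that do not overlap, except 1 gene that is not reported here. Alternatives included DESeq2 1.42.0, other scalings, filters, lineages from clusters, thinning and each library left out. Intervals and floors (3 counts) cover counting error only. No protein sequences were used here.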

Additional observations from a re-analysis of the deposited data

Results flagged for a closer look

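The LATS1/2 KO difference was not alike in the 2 luminal lineages for 7 members, by a test of the difference between lineages within the same 4 libraries (edgeR, luminal ER+ minus luminal ER-, log2 scale). It was larger in luminal ER+ cells for Anxa8 (5.45), S100a14 (1.51), Anxa2 (1.27), Anxa5 (0.85) and S100a10 (0.77), and smaller for Anxa3 (-1.31) and S100a6 (-1.17). For Anxa8 the WT luminal ER+ sums held 7 and 4 UMIs, at the free RNA estimate. The values for Anxa8, Anxa2, Anxa3 and S100a6 passed also with library totals alone, those for Anxa5, S100a10 and S100a14 did not.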

How the results depend on the processing

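Of 1546 values under alternatives, 1426 kept direction and side of the threshold (or, in basal cells, lay within the replicate spread), 51 lost and 24 gained a call, 27 changed sign and 18 basal values moved beyond the spread; the cause was not tested. In fibroblasts, 0 members were called, against 1 with library totals, DESeq2, no filter on low counts, the highest doublet scores left out or free RNA subtracted, 2 with lineages from clusters, 2 with the replicate block, and 0 to 1 with each library left out. In endothelial cells 2 became 0 without the filter and 5 with free RNA subtracted. In lymphocytes 1 became 2 with clusters, 0 with free RNA subtracted, and 0 to 2 with each library left out. In EYFP-positive cells 10 became 2 with no replicate block, and in the luminal difference S100a10 was then not called (0.74, adjusted p = 0.0542). Where 1 sample was left in a condition, it was assumed to vary like the other condition. No library could be left out of comparisons within 2 mice, which would leave no residual degrees of freedom.

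Signs changed for values that had no call: Anxa2 in luminal ER- cells (-0.042 to 0.26 with each library left out), S100a6 in fibroblasts (-0.066 with library totals, -0.027 without high doublet scores, -0.11 with free RNA subtracted, -0.086 to 0.29 with each library left out), Anxa3 (0.044) and S100a4 (-0.094) there with clusters, S100a11 in endothelial cells (0.0098 with clusters, -0.42 to 0.078 with each library left out), and Anxa1 (-1.82) and S100a6 (-0.15) there with free RNA subtracted. In lymphocytes Anxa5 (-0.012) and S100a10 (-0.060) changed sign without the filter, S100a4 (0.037) and S100a11 (-0.29) with free RNA subtracted, and S100a4 (0.86) with thinned sums, and with each library left out the ranges were -0.064 to 0.60 for Anxa5, -0.41 to 0.68 for S100a10, -0.10 to 0.61 for S100a11 and -0.31 to 0.10 for S100a4. With library totals the S100a11 difference between luminal lineages was -0.22, and in WT basal against luminal ER- cells S100a6 was 0.11 and S100a14 0.066 (0.053 with clusters, where S100a4 was -0.092), and S100a14 in luminal ER+ against ER- cells 0.064.

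Library totals, the joining of luminal cells of neither gate to luminal ER- and at least 2 contractile markers were chosen after seeing the data. Replicate numbers correlated at 0.02 to 0.07 across genes and so share only a number. The replicate block changed no member call of LATS1/2 KO against WT outside fibroblasts, where calls over all genes went from 322 to 926. Counts of called genes moved by over 1.5 times as follows: luminal ER+ 3114 to 1974 with thinned sums and 1370 to 1983 with each library left out, fibroblast 322 to 864 without the filter, 708 with clusters, 53 and 81 without WT replicate 1 or 2, and 609 and 646 without LATS1/2 KO replicate 1 or 2, endothelial 596 to 262 in DESeq2, 381 with thinned sums, 375 without LATS1/2 KO replicate 1 and 0 without the filter (1614 at an unadjusted p under 0.05), lymphocyte 40 to 74 without the filter, 87 with clusters, 19 with free RNA subtracted, 9 with thinned sums, and 110 and 79 without LATS1/2 KO replicate 1 or 2, basal 2999 to 1398 in DESeq2 and 1792 and 1656 without WT replicate 1 or 2, EYFP-positive cells 4285 to 1267 in DESeq2, 700 with thinned cells and 253 with no replicate block, the luminal difference 3082 to 1886 in DESeq2 and 1692 without LATS1/2 KO replicate 1, and the WT lineages 4774 (basal) to 2477 and 8076 (luminal ER+) to 5103 in DESeq2. With library totals the share of called genes that were higher went from 56.2% to 24.1% for the luminal difference, from 45.5% to 59.8% for WT basal and from 50.01% to 63.5% for WT luminal ER+ cells.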
